A study of Mus musculus with 9 samples.

Results

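The mitochondrial ribosomal proteins are the nuclear-encoded protein components of the ribosome inside mitochondria. The genes were taken by annotation alone, as the protein-coding genes of GENCODE vM21 (mouse build GRCm38) whose symbol begins with Mrpl or Mrps and a number. This gave 78 genes, 29 named for the small subunit (Mrps) and 49 for the large (Mrpl). All 78 had values in both deposited tables, which together list 16962 genes, 15926 of them in both, and all 78 passed the filter on low values. RNA was sequenced from 4T1 cells, a mouse mammary carcinoma line that the labels give as wild type. The 9 libraries form 3 groups of 3: cells with a negative-control hairpin (shCTRL), and cells with 1 of 2 hairpins against Yap (shYap-1 and shYap-2), so every group carries a hairpin. The labels do not say whether replicates were separate cultures, so p-values measure only the spread between these libraries. The study asked which genes change when Yap, the co-activator restrained by Hippo signalling, is depleted in breast cancer cells.

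Mitochondria keep a small genome whose messages encode core subunits of the respiratory chain and ATP synthase, and the mitochondrial ribosome translates them. Its RNAs are made inside the organelle, but every protein is made in the cytosol and imported, so its assembly depends on nuclear genes for proteins of both subunits. The small subunit binds the message and checks the codon, and the large subunit joins the amino acids and feeds the new protein to the inner membrane. Many of these proteins descend from bacterial ribosomal proteins, and others were gained in mitochondria.

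The knockdown was present in each treated library. Yap1 had an FPKM (fragments per kilobase of transcript, scaled by the mapped total) of 48.8 ± 0.475 (SD, n = 3) in shCTRL, 8.77 ± 0.647 with shYap-1 and 10.4 ± 0.626 with shYap-2. Depth estimated from the values was 19.55 to 28.35 M fragments a library, and the mitochondrial ribosomal protein gene with the fewest fragments, Mrps16, had about 225 in its lowest library. All 6 epithelial markers looked for were above an FPKM of 1, of leukocyte markers only Cd14 was, and of fibroblast and endothelial markers only Pdgfra was. Replicate 2 of shYap-1 stood apart: its variance against the other shYap-1 libraries was 15.6 and 12.2 times the sampling noise, where replicates 1 and 3 differed by 2.12 times. Its summed FPKM of the 13 mitochondrially encoded proteins was 10356 against 21027 and 19796 in replicates 1 and 3. For the family, the other gene lists and the subunit balance, values without this library are given where they differ by over 1.5 times. In bulk RNA, a lower level per cell and fewer cells with that level cannot be told apart.

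The promoters below belong to 6 of the 12 genes with the largest rises and falls described further on, 4 that rose (Mrps18a, Mrpl14, Mrpl2, Mrps21) and 2 that fell (Mrpl3, Mrps27). They are examples chosen after values were seen, and genes of equal or larger change, such as Mrpl10 and Mrpl23, are not shown. Each holds the 250 bases before the RefSeq transcript start and the first 29 after it, 5′ to 3′ on the gene's strand (RefSeq, GRCm38.p6). The windows lie at chr17:46110754-46111032, chr17:45686099-45686377 and chr17:46645971-46646249, all on the plus strand, for Mrps18a, Mrpl14 and Mrpl2. Mrps21 is at chr3:95871486-95871764 on the minus strand, and Mrpl3 and Mrps27 are at chr9:105053018-105053296 and chr13:99344536-99344814 on the plus strand. Capitals mark matches on either strand to 3 motifs: the NRF1 motif (GCGCA, any base, GCGC), the ETS motif CCGGAAG and the E-box CACGTG, bound by MYC and related factors.
Mrps18a: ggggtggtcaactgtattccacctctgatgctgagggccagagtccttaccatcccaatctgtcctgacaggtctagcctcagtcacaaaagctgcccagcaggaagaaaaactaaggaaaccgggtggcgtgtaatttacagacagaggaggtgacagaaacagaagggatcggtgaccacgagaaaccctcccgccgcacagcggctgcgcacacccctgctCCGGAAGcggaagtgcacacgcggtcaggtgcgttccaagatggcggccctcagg
Mrpl14: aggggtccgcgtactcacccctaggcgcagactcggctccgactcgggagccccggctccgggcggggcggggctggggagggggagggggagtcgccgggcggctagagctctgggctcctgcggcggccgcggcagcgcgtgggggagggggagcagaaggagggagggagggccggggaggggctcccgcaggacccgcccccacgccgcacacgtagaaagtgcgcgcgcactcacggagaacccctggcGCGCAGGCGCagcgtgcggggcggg
Mrpl2: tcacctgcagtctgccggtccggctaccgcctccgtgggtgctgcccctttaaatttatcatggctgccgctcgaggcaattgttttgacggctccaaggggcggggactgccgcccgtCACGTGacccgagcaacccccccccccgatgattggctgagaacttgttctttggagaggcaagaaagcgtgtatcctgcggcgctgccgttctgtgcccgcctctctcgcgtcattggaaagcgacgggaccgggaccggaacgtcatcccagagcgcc
Mrps21: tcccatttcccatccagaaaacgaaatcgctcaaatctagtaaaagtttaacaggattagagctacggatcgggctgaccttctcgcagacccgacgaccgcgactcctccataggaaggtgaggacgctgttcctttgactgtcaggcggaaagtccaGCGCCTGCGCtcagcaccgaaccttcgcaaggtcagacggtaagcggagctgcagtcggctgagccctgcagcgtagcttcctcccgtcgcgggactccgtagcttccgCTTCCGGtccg
Mrpl3: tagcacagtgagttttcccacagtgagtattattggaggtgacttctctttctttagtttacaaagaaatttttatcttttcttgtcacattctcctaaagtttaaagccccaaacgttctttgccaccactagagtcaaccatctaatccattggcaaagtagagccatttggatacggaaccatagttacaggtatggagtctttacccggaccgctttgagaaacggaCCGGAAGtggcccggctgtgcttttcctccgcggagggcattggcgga
Mrps27: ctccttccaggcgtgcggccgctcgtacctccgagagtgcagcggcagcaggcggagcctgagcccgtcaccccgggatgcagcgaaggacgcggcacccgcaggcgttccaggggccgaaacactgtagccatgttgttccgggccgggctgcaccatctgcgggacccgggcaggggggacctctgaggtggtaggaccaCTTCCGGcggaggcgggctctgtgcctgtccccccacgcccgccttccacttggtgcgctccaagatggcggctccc
The ETS motif stands near the start in Mrps18a, Mrps21, Mrpl3 and Mrps27, in 2 promoters of genes that rose and in 2 of genes that fell. NRF1 motifs mark Mrpl14 and Mrps21, and the only E-box among the 6 is in Mrpl2.

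Over the family, promoter windows of 300 bases (250 before the start, 50 after) were matched for 69 of the 78 genes. ETS motifs were in 24 of 69 (34.8%), against 20.5% of 8532 promoters of tested genes and 9.14% of all 27025 promoters. The NRF1 motif was in 13 of 69 (18.8%), against 11.8% and 4.82%. E-boxes were in 5 of 69 (7.25%), against 10.7% and 7.24%. The TEAD motif ACATTCC, whose factors carry YAP to DNA, was in 0 of 69, against 2.46% of promoters of tested genes and 3.85% of all. By response, ETS motifs were in 7 of 21 genes that rose with both hairpins, 3 of 13 that fell with both and 14 of the 35 others, and NRF1 motifs in 4, 2 and 7. These matches are a description of letters in a short window.

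In control cells the family was expressed at moderate to high levels, with a median FPKM of 29.21 against 13.9 over all tested genes. Levels spanned 30.9-fold, from 4.30 for Mrps16, a small-subunit protein of bacterial descent, to 132.8 for Mrpl13, a large-subunit one. Mrpl13 was at 143.85, 129.33 and 125.12 in the shCTRL replicates, and Mrps16 at 4.25, 3.87 and 4.78. After Mrpl13 came Mrpl52 (94.85, 97.73 and 96.07) and Mrpl33 (93.93, 93.1 and 85.03), and none of these 3 ranges overlapped. Among genes named for the small subunit the highest were Mrps34 (61.76, 69.35 and 68.12), Mrps17 (59.42, 63.46 and 58.31) and Mrps21 (61.57, 60.06 and 56.26). Here each range overlapped that of its neighbour in the order. At the low end of these genes, after Mrps16, Mrps35 had 8.04, 8.76 and 8.27 and Mrps30 10.92, 10.75 and 11.34, without overlap. Despite its name, the Mrps30 protein sits in the large subunit. In the large subunit Mrpl47 had 6.35, 6.16 and 5.47, Mrpl19 7.51, 6.54 and 6.26, and Mrpl51 7.94, 8.11 and 9.19. Mrpl47 and Mrpl19 overlapped, while Mrpl19 and Mrpl51 did not.

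Each hairpin was compared with shCTRL by limma on log2(FPKM + 1) across all genes, with Benjamini-Hochberg adjustment over all of them and a threshold of 0.05 on the adjusted p. Individual members rose and fell in both directions while the family's centre hardly moved. With shYap-1, 23 rose and 17 fell (29.5% and 21.8% of the 78), where 37.6% and 27.6% of 10647 tested genes did. With shYap-2, 31 rose and 19 fell (39.7% and 24.4%), against 43.2% and 30.5% of 10615. Called in either direction were 51.3% and 64.1% of members, against 65.2% and 73.7% of all tested genes. For the mean of both hairpins 28 rose and 19 fell, against 41.5% and 29.9% of 10733 (71.4% in either direction). Both comparisons use the same shCTRL libraries. Side by side, 22 genes rose with both hairpins, 16 fell with both, 14 were called with 1 hairpin, 26 with neither, and 0 were called in opposite directions. The matching shares over all tested genes were not counted. Only 3.29% of all tested genes were called between the hairpins, so this agreement cannot be read as particular to the family.

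Changes in the family were small. The median log2 fold change of members was 0.04 with shYap-1 and 0.05 with shYap-2, against 0.07 and 0.08 over all tested genes, and it was below 0 with each hairpin under both scalings tried. Leaving out replicate 2 of shYap-1 took that hairpin's median of members to 0.07, equal at this rounding to that over all tested genes. The median size of the change, whatever its sign, was 0.23 and 0.18 in members against 0.40 and 0.33 over all. Changes beyond 0.5 on the log2 scale were found in 9 members (11.5%) with shYap-1 and 8 (10.3%) with shYap-2, where 40.6% and 32.3% of tested genes passed that size. By raw values, all 3 shYap-1 libraries lay above all 3 controls for 29 members and below for 18, against 40.5% and 30.6% of tested genes. For shYap-2 these were 34 and 20 members, against 44.7% and 31.8%.

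The split between rises and falls depends on how libraries are scaled, because the median of all genes sits slightly above 0 in the deposited values. Under trimmed-mean scaling of the shYap-1 table, 15 members rose and 19 fell, against 32.9% and 32.3% of tested genes, and the shYap-2 table gave 21 and 26, against 35.9% and 37.6%. Median-of-ratios scaling gave 15 and 22 for shYap-1 (31.6% and 33.6% of tested genes) and 21 and 26 for shYap-2 (35.7% and 37.9%). With median-of-ratios scaling the all-gene median for shYap-1 went from 0.07 to -0.03, a shift of over 0.1, and the members' median went to -0.07. Under these scalings falls outnumber rises, so the deposited values alone put more members up than down. Without shYap-1 replicate 2, that hairpin's counts were 28 and 20, against 41.3% and 31.3% of tested genes. Removing each library's trend on GC content gave 20 rises and 28 falls for shYap-1 (36.7% and 35.7% of tested genes) and 25 and 26 for shYap-2 (37.6% and 36.7%). With that trend removed, 16 members gained a call and 8 lost theirs for shYap-1, and 10 gained and 9 lost for shYap-2.

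**Figure D1:**
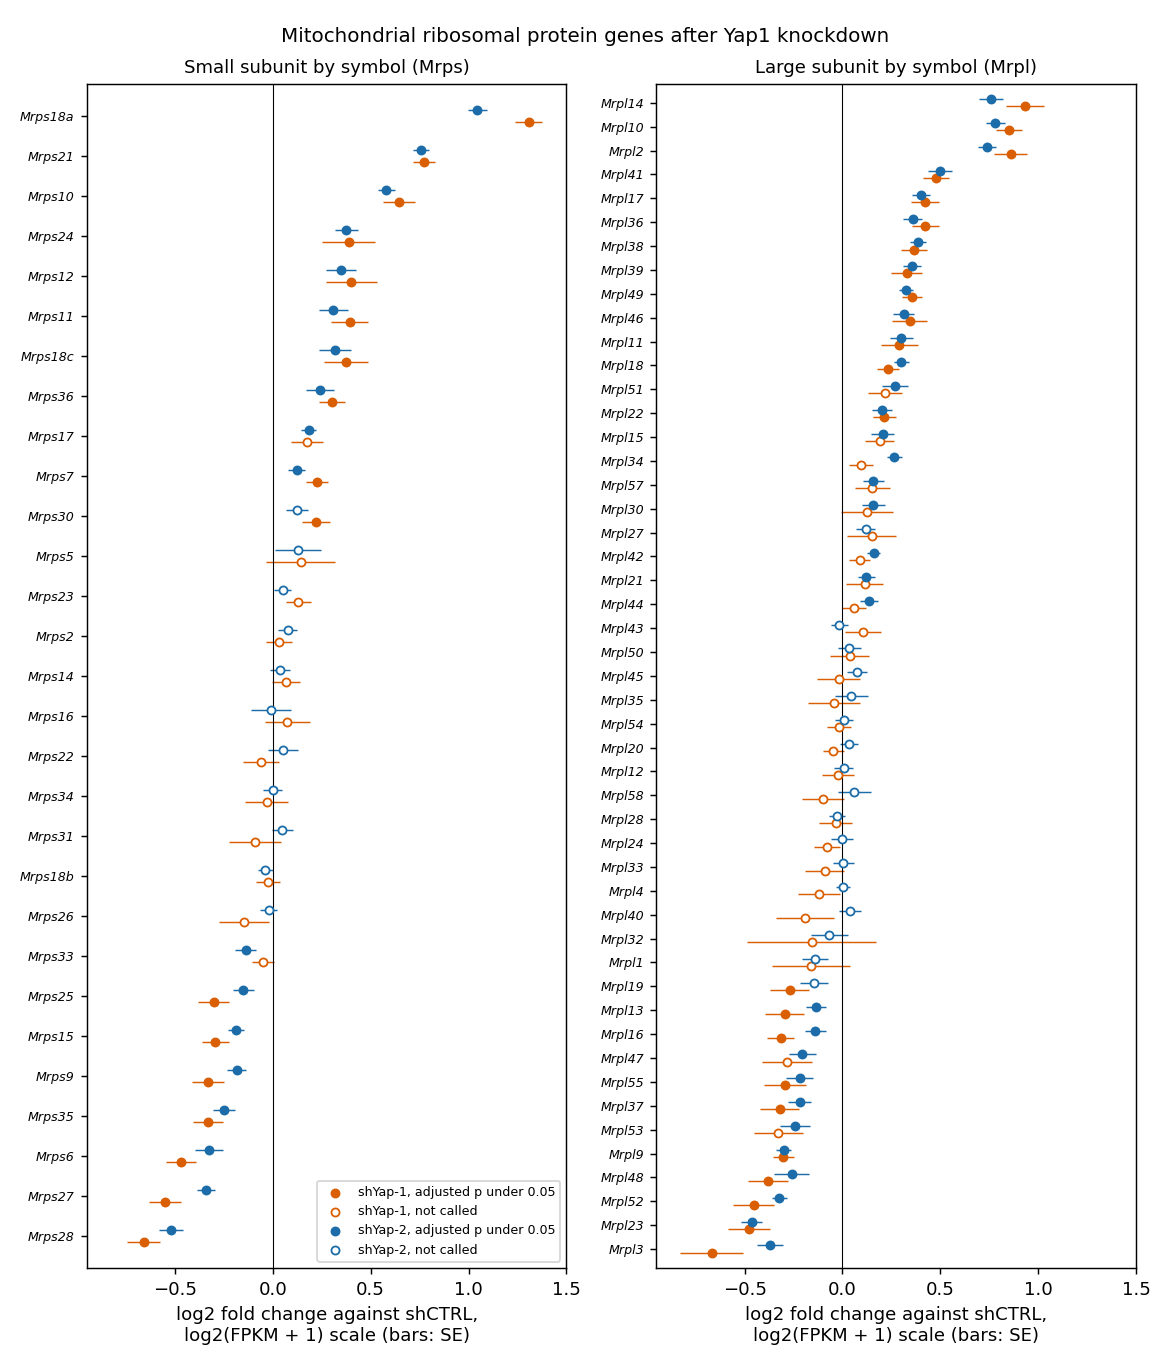
Log2 fold change of each of the 78 genes against shCTRL on the log2(FPKM + 1) scale (x axis), ordered by the mean of both hairpins, with bars for 1 SE. Filled points passed the adjusted p threshold of 0.05. Mrps18a lies furthest to the right at 1.31 and 1.05, Mrps28 and Mrpl3 furthest to the left at -0.66 and -0.67 with shYap-1, and most genes lie within 0.5 of 0.

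The largest rise was Mrps18a (ENSMUSG00000023967; chromosome 17, 46110986 to 46128910, plus strand). It belongs to the S18 family, and despite its small-subunit name its protein sits in the large subunit. Its FPKM was 36.78, 40.80 and 38.81 in shCTRL, 95.82, 103.55 and 92.97 under shYap-1, and 78.24, 79.83 and 85.34 under shYap-2. All 6 knockdown libraries lay far above the controls, and the hairpin groups did not overlap each other. The log2 fold change was 1.31 (SE 0.07, adjusted p = 5.14e-06) with shYap-1 and 1.05 (SE 0.05, adjusted p = 1.35e-07) with shYap-2.

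Its paralogs did not share that size of change. Mrps18c, the copy that takes the bacterial S18 place in the small subunit, had 31.44, 28.94 and 24.87 in shCTRL, 41.5, 32.57 and 37.29 under shYap-1 and 37.35, 36.28 and 33.14 under shYap-2. It rose by 0.37 (SE 0.11, adjusted p = 0.0219) and 0.32 (SE 0.08, adjusted p = 0.0058), and no knockdown library overlapped a control. The shYap-1 call of Mrps18c was lost under 6 of 15 alternative settings, both scalings among them (adjusted p up to 0.0742). Mrps18b, the small-subunit copy at another place, ranged from 54.98 to 58.68 in shCTRL and from 52.8 to 57.75 over the knockdown libraries. Its ranges overlapped and its log2 fold changes were -0.02 (adjusted p = 0.745) and -0.04 (adjusted p = 0.405), and no test compared the paralogs with each other. With the GC trend removed Mrps18b was called as a fall, at -0.17 (adjusted p = 0.0152) and -0.16 (adjusted p = 0.00318), and with shYap-2 also under both scalings.

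Mrpl14 is a large-subunit protein at the face that meets the small subunit (ENSMUSG00000023939; chromosome 17, 45686322 to 45698495). Its FPKM was 57.02, 50.89 and 60.87 in shCTRL, 105.09, 120.99 and 98.87 under shYap-1, and 95.5, 99.56 and 91.7 under shYap-2. The controls lay well below every knockdown library. The rises were 0.93 (SE 0.10, adjusted p = 0.000117) and 0.76 (SE 0.06, adjusted p = 4.64e-06). A share of 11.2% of its exonic bases is also exonic in Tmem63b on the other strand, and use of strand in counting is not given in the sources used here. Its known partner Malsu1, which holds an unfinished large subunit away from the small one in human cells, had a mean FPKM of 8.28 in shCTRL, 12.1 with shYap-1 and 12.9 with shYap-2. Malsu1 rose by 0.50 (SE 0.08, adjusted p = 0.00128) and 0.59 (SE 0.06, adjusted p = 3.1e-05).

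Mrpl2 is an ancient large-subunit protein near the site where peptide bonds form (ENSMUSG00000002767; chromosome 17, 46646229 to 46650139). It was at 39.45, 41.43 and 43.68 in shCTRL, 70.7, 85.77 and 72.51 under shYap-1, and 67.02, 71.66 and 71.11 under shYap-2, with no overlap between control and knockdown. The log2 fold changes were 0.86 (SE 0.09, adjusted p = 0.000101) and 0.74 (SE 0.05, adjusted p = 8.09e-07).

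Mrpl10 forms the base of the stalk, the flexible arm of the large subunit that receives translation factors (ENSMUSG00000001445; chromosome 11, 97041560 to 97049213). Its FPKM was 27.69, 26.02 and 29.17 in shCTRL, 48.27, 52.91 and 50.71 under shYap-1, and 48.78, 48.73 and 47.0 under shYap-2. The knockdown groups overlapped each other and lay above all controls. It rose by 0.85 (SE 0.07, adjusted p = 3.26e-05) and 0.78 (SE 0.05, adjusted p = 6.55e-07).

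Among genes named for the small subunit, the largest rises after Mrps18a were Mrps21 and Mrps10, both of bacterial descent. Mrps21 (ENSMUSG00000054312; chromosome 3, 95862634 to 95871519, minus strand) had 61.57, 60.06 and 56.26 in shCTRL, 100.23, 103.73 and 102.17 under shYap-1, and 103.19, 97.57 and 101.65 under shYap-2. Its groups were tight and the hairpins interleaved, at log2 fold changes of 0.77 (SE 0.06, adjusted p = 2.14e-05) and 0.76 (SE 0.04, adjusted p = 3.87e-07). Mrps10 (ENSMUSG00000034729; chromosome 17, 47368887 to 47381417) had 30.25, 28.96 and 27.76 in shCTRL, 50.59, 41.38 and 46.15 under shYap-1, and 44.68, 43.56 and 43.16 under shYap-2. It rose by 0.65 (SE 0.08, adjusted p = 0.000363) and 0.58 (SE 0.04, adjusted p = 2.17e-06), without overlap with the controls.

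The largest falls were shared between the subunits. Mrps28, a small-subunit protein (ENSMUSG00000040269; chromosome 3, 8802146 to 8923918, minus strand), had 44.56, 39.22 and 41.23 in shCTRL, 23.28, 27.06 and 27.81 under shYap-1, and 26.71, 28.77 and 30.79 under shYap-2. All knockdown libraries lay below all controls, at -0.66 (SE 0.09, adjusted p = 0.000382) and -0.52 (SE 0.06, adjusted p = 5.84e-05). Mrps27, a pentatricopeptide-repeat protein gained in mitochondria (ENSMUSG00000041632; chromosome 13, 99344786 to 99415562), had 19.6, 19.87 and 19.31 in shCTRL, 14.45, 11.87 and 13 under shYap-1, and 15.18, 14.83 and 15.78 under shYap-2. It fell by 0.55 (SE 0.08, adjusted p = 0.000748) and 0.34 (SE 0.05, adjusted p = 0.000117) on the log2 scale. Mrps6 (ENSMUSG00000039680; chromosome 16, 92058270 to 92112227), of bacterial descent, had 57.98, 54.45 and 48.16 in shCTRL, 38.57, 38.29 and 37.96 under shYap-1, and 42.84, 45.08 and 39.47 under shYap-2. Its values also stood apart from the controls, at -0.47 (SE 0.08, adjusted p = 0.00113) and -0.33 (SE 0.07, adjusted p = 0.00258). Mrps6 shares 19.9% of its exonic bases with Gm49711 and 10.4% with Slc5a3 on the same strand, so its reads could be divided between genes.

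Among large-subunit genes, Mrpl3, an ancient protein of the core (ENSMUSG00000032563; chromosome 9, 105053239 to 105079888), had 72.32, 62.08 and 59.14 in shCTRL, 45.94, 30.62 and 45.71 under shYap-1, and 48.25, 49.32 and 50.83 under shYap-2. Its lowest value is in shYap-1 replicate 2, and the controls stayed above every knockdown library. It fell by 0.67 (SE 0.16, adjusted p = 0.00782) and 0.37 (SE 0.07, adjusted p = 0.000822). Mrpl23, at the tunnel where the new protein leaves (ENSMUSG00000037772; chromosome 7, 142532686 to 142540747), had 42.59, 38.85 and 45.08 in shCTRL, 25.61, 33.65 and 31.24 under shYap-1, and 30.49, 30.63 and 29.65 under shYap-2. It fell by 0.48 (SE 0.11, adjusted p = 0.00601) and 0.46 (SE 0.05, adjusted p = 4.9e-05), again without overlap. Mrpl52, gained in mitochondria (ENSMUSG00000010406; chromosome 14, 54426909 to 54429756), had 94.85, 97.73 and 96.07 in shCTRL, 60.33, 82.0 and 69.19 under shYap-1, and 77.36, 79.58 and 73.22 under shYap-2. It fell by 0.45 (SE 0.11, adjusted p = 0.00646) and 0.32 (SE 0.04, adjusted p = 4.94e-05). All 12 of these largest rises and falls kept their calls and directions with both hairpins under each of 15 alternative settings per hairpin.

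**Figure D2:**
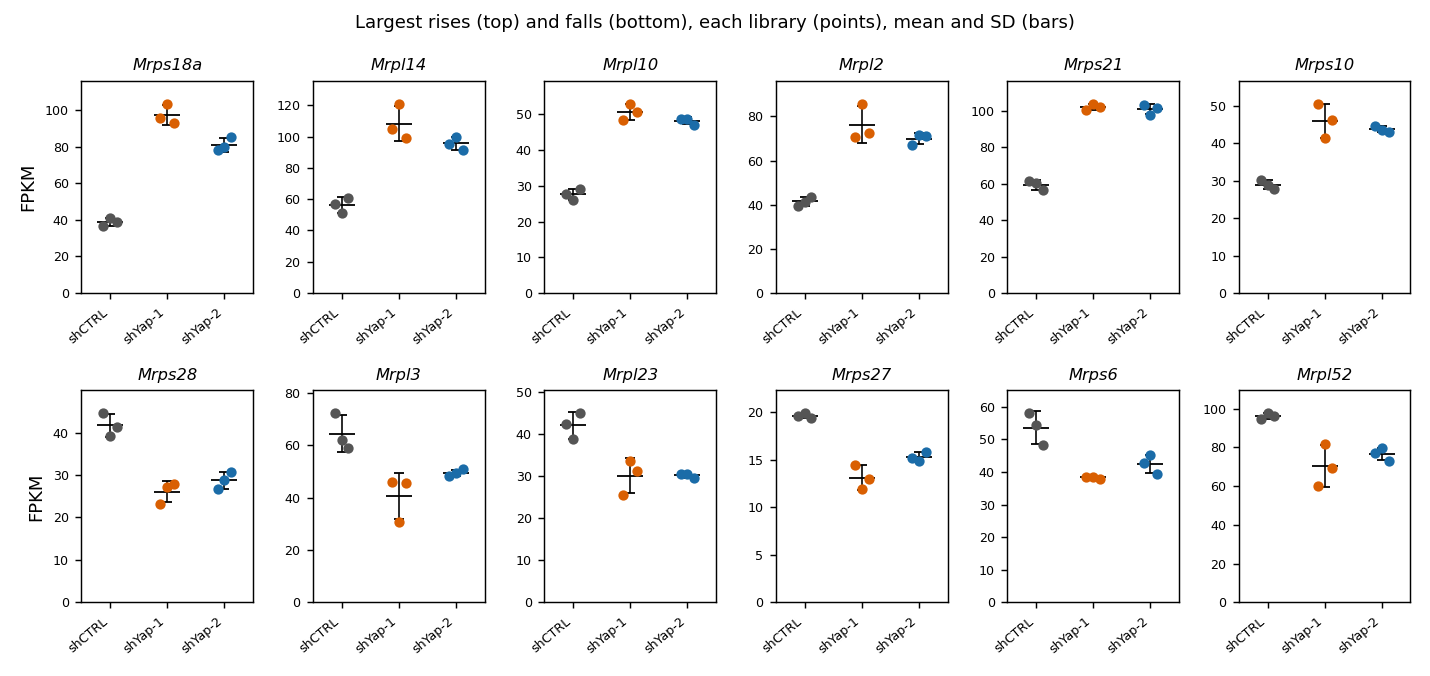
FPKM (y axes, from 0) of the 6 largest rises (top row) and 6 largest falls (bottom row) in each library, with points for libraries and bars for the mean and SD of 3. In every panel the 3 shCTRL libraries lie on one side of all 6 knockdown libraries. The panel of Mrps18a runs from 36.78 in a control to 103.55 with shYap-1.

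Several genes with a special task in the particle were not called in the deposited values. Mrpl12, the stalk protein that carries translation factors, had 81.47, 83.53 and 86.71 in shCTRL, 74.94, 92.63 and 81.24 under shYap-1 and 85.21, 88.95 and 78.94 under shYap-2. These ranges overlapped (adjusted p = 0.833 and 0.906). Once the GC trend was taken out, however, Mrpl12 was called as a fall, at -0.26 (adjusted p = 0.000822) and -0.20 (adjusted p = 0.00287). Mrpl11, the other protein of the stalk base, rose by 0.29 (SE 0.10, adjusted p = 0.0301) and 0.30 (SE 0.06, adjusted p = 0.00122), and its shYap-1 call was lost under 8 of 15 alternatives (adjusted p up to 0.117). Mrpl45 is known to tether the ribosome to the inner membrane, and its log2 fold changes were -0.02 and 0.07 (adjusted p = 0.885 and 0.214). Mrpl58, which can release stalled peptides, was at -0.10 and 0.06 (adjusted p = 0.434 and 0.536), and at -0.25 with shYap-1 once the GC trend was removed (adjusted p = 0.0416). Without shYap-1 replicate 2 the value of Mrpl45 with shYap-1 was 0.10 (adjusted p = 0.21).

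The decoding site gave a mixed picture. Mrps12, the small-subunit protein next to the codon, had 20.75, 17.02 and 18.85 in shCTRL, 22.79, 30.61 and 22.88 under shYap-1 and 22.79, 23.71 and 26.36 under shYap-2. It rose by 0.40 (SE 0.13, adjusted p = 0.0262) and 0.35 (SE 0.08, adjusted p = 0.00273), with no overlap with the controls. Removing the GC trend ended both calls of Mrps12, at 0.15 (adjusted p = 0.157) and 0.13 (adjusted p = 0.17), and the shYap-1 call was lost under 5 of 15 alternatives, both scalings included. Mrps5, which also acts in accuracy, varied from 13.86 to 20.5 within shCTRL alone, and its log2 fold changes of 0.14 and 0.13 did not pass the test (adjusted p = 0.497 and 0.35).

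By place in the large subunit, risers and fallers were found side by side. Both directions were also common over all tested genes, at 37.6% and 27.6% under shYap-1 and 43.2% and 30.5% under shYap-2. These groups of 5 to 10 proteins were not tested against those shares. Of 5 stalk proteins 2 rose and 0 fell under shYap-1 (1 fell at an unadjusted p under 0.05 in limma), 2 and 1 under shYap-2, the fall being Mrpl53, whose call was lost under 3 of 15 alternatives. Of 10 proteins at the central protuberance, the crest of the large subunit, there were 3 rises and 3 falls under shYap-1 and 4 rises and 3 falls under shYap-2. Mrpl38 rose there by 0.37 (SE 0.07, adjusted p = 0.00202) and 0.39 (SE 0.04, adjusted p = 3.19e-05) while Mrpl52 fell, and the shYap-1 call of Mrpl38 was lost once the GC trend was taken out (adjusted p = 0.123). Of 9 proteins around the exit tunnel 3 rose and 1 fell under shYap-1, 4 and 2 under shYap-2. Mrpl17 rose there by 0.42 (SE 0.07, adjusted p = 0.00147) and 0.40 (SE 0.05, adjusted p = 4.13e-05), beside the fall of Mrpl23.

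The genes were also grouped by descent. Of the small subunit's 16 proteins of bacterial descent, there were 7 rises and 4 falls under shYap-1 and 8 rises and 4 falls under shYap-2, at median log2 fold changes of 0.16 and 0.12. Of the 10 small-subunit proteins gained in mitochondria, 0 rose and 3 fell under shYap-1, 0 and 4 under shYap-2, at medians of -0.08 and -0.03. Those that fell were Mrps25, Mrps27 and Mrps35 with both hairpins and Mrps33 with shYap-2. With shYap-2 the call of Mrps33 was lost under 8 of 15 alternatives and that of Mrps25 under 5. At an unadjusted p under 0.05 the limma fits gave 0 rises in this group with each hairpin as well. In the large subunit, shYap-1 raised 8 of 30 proteins of bacterial descent and lowered 7, and of the 21 others it raised 7 and lowered 3. With shYap-2 the counts were 12 and 7 of 30, and 10 and 4 of 21. These groups are small, their difference was not tested, and the background shares stand above.

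The small and the large subunit were set against each other first by symbol. With shYap-1, 10 of 29 small-subunit genes rose and 7 fell (34.5% and 24.1%), and 13 of 49 large-subunit genes rose and 10 fell (26.5% and 20.4%). With shYap-2 the counts were 10 and 8 of 29 (34.5% and 27.6%), and 21 and 11 of 49 (42.9% and 22.4%). Over all tested genes 37.6% rose and 27.6% fell under shYap-1, 43.2% and 30.5% under shYap-2. The median log2 fold change was 0.07 for small and -0.02 for large with shYap-1, a difference of 0.09. With shYap-2 the medians were 0.05 and 0.04, a difference of 0.005. Within the shYap-1 group, the same difference taken library by library against the control means was -0.01, 0.18 and -0.05, above 0 in replicate 2 alone. Without that library the difference was -0.009. It was also smaller by over 1.5 times without shYap-1 replicate 1 (0.040) and without shCTRL replicates 1, 2 or 3 (0.053, 0.027 and 0.027).

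In summed FPKM the subunit balance by symbol appeared to shift. The ratio of summed small-subunit to summed large-subunit FPKM was 0.474, 0.479 and 0.467 in shCTRL, 0.509, 0.532 and 0.4999 under shYap-1, and 0.497, 0.492 and 0.498 under shYap-2. All 6 knockdown libraries lay above all controls. The names do not follow the particle, however: Mrps18a and Mrps30 sit in the large subunit, and Mrps36 is a component of the 2-oxoglutarate dehydrogenase complex, not of the ribosome. With these 3 placed by structure, the ratio was 0.430, 0.432 and 0.420 in shCTRL, 0.420, 0.438 and 0.415 under shYap-1, and 0.424, 0.419 and 0.420 under shYap-2. The groups then overlapped, at means of 0.427 ± 0.006, 0.424 ± 0.012 and 0.421 ± 0.002 (SD, n = 3 each). The gap by symbol therefore rests on where these 3 genes are counted.

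All 3 reassigned genes had higher means with the knockdown. Mrps36 had 17.49, 16.75 and 18.15 in shCTRL, 22.86, 20.88 and 21.52 under shYap-1, and 23.11, 18.66 and 20.93 under shYap-2. It rose by 0.30 (SE 0.07, adjusted p = 0.00554) and 0.24 (SE 0.07, adjusted p = 0.0144), and its shYap-2 call was lost under 4 of 15 alternatives, both scalings included (adjusted p up to 0.108). Mrps30 had 12.52, 13.77 and 12.68 under shYap-1 and 11.54, 12.7 and 12.05 under shYap-2, all above its controls. It rose with shYap-1 by 0.22 (SE 0.07, adjusted p = 0.0267) and was at 0.13 with shYap-2 (adjusted p = 0.066). The shYap-1 call of Mrps30 was lost under 7 of 15 alternatives, among them both scalings (adjusted p up to 0.216) and the replicate block (0.0648), and with shYap-2 it was called once the GC trend was removed (adjusted p = 0.0204). By structure, 7 of 26 small-subunit genes rose and 7 fell under shYap-1 (26.9% each), against 15 and 10 of the 51 large-subunit genes (29.4% and 19.6%). For shYap-2 these counts were 8 and 8 of 26 (30.8% each), and 22 and 11 of 51 (43.1% and 21.6%). The shares over all tested genes were 37.6% and 27.6% under shYap-1, 43.2% and 30.5% under shYap-2. Small minus large medians were -0.03 and -0.02 with shYap-1 and shYap-2.

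The summed level of the family was slightly higher with the knockdown. Summed FPKM was 2871, 2827 and 2810 in shCTRL, 3012, 3084 and 3004 under shYap-1, and 3076, 3080 and 3046 under shYap-2. This is 0.560% ± 0.010 of all FPKM in shCTRL, 0.603% ± 0.003 with shYap-1 and 0.613% ± 0.002 with shYap-2 (SD, n = 3 each). Control and knockdown libraries did not overlap. The 5 largest gains in mean FPKM, Mrps18a, Mrpl14, Mrps21, Mrpl2 and Mrpl10, together added 211 with shYap-1, where all 78 genes added 197, and 172 of 231 with shYap-2. The sum of the other 73 was 2649, 2608 and 2581 in shCTRL, 2592, 2617 and 2586 under shYap-1, which overlapped the controls, and 2683, 2683 and 2649 under shYap-2, all at or above the highest control. FPKM is a share, so such a sum moves with what the other genes do, among them the cytosolic ribosomal proteins described below.

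**Figure D3:**
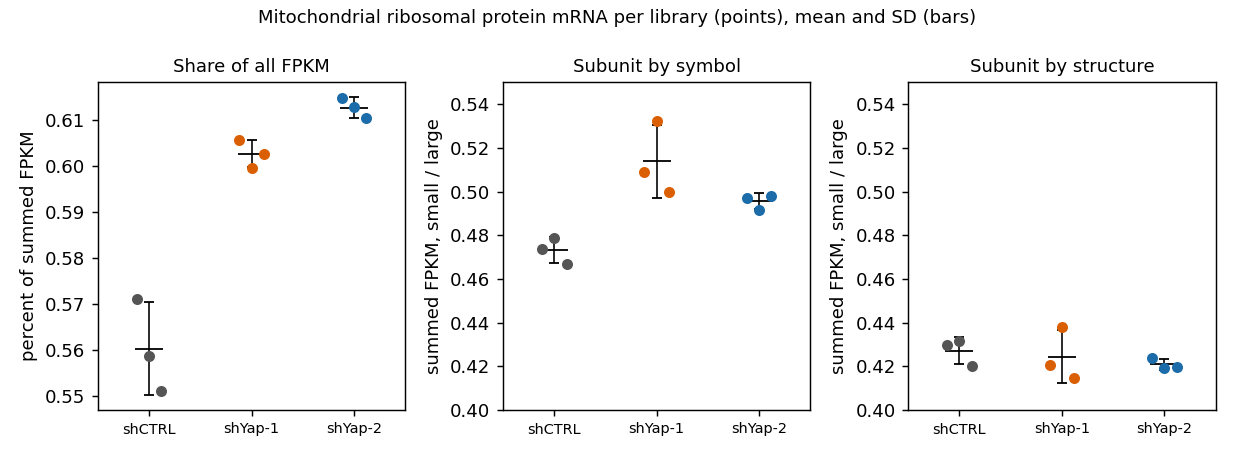
Left, share of all FPKM held by the 78 genes (percent); middle and right, ratio of summed small-subunit to large-subunit FPKM, with subunits taken from the symbol and from the structure. Points are libraries, bars the mean and SD of 3, and the y axes do not start at 0. The control libraries lie below the others in the left and middle panels and among them in the right one.

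The hairpins were also compared with each other. Of the 78 genes, 0 were higher with shYap-2 and 1 was lower, against 1.93% and 1.36% of 10733 tested genes, or 3.29% in either direction (by limma at an unadjusted p under 0.05, 3 members were higher and 1 lower). The 1 gene was Mrps18a, which rose with both hairpins and stood lower with shYap-2 by 0.26 on the log2 scale (SE 0.06, adjusted p = 0.0497). This call is at the edge of the threshold and was lost under 14 of 17 alternatives (adjusted p up to 0.197), the replicate block among them (0.0693). Without shYap-1 replicate 2, Mrpl34, Mrpl4, Mrpl52, Mrps15 and Mrps26 were higher with shYap-2 and Mrps18a and Mrpl1 lower.

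That library deviated from its group in step with GC content. GC content was taken over all annotated transcripts of a gene. Across the 78 genes, Spearman's rho between it and the deviation from the other shYap-1 replicates was 0.66 for replicate 2. For replicates 1 and 3, which are measured against replicate 2, rho was -0.66 and -0.46. In the other groups rho ran from -0.30 to 0.39. These points share libraries and base composition, and are given as a description. Mrpl32 fell to 4.68 in replicate 2 against 13.17 and 12.03 in the other shYap-1 libraries, and Mrpl1 to 5.17 against 9.42 and 9.26. Over the members, log2 fold change had a rho of 0.20 with GC content for shYap-1 and 0.16 for shYap-2, against 0.23 and 0.22 over all tested genes. The part of GC content in the calls of single genes was not tested beyond the removal of the trend.

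**Figure D4:**
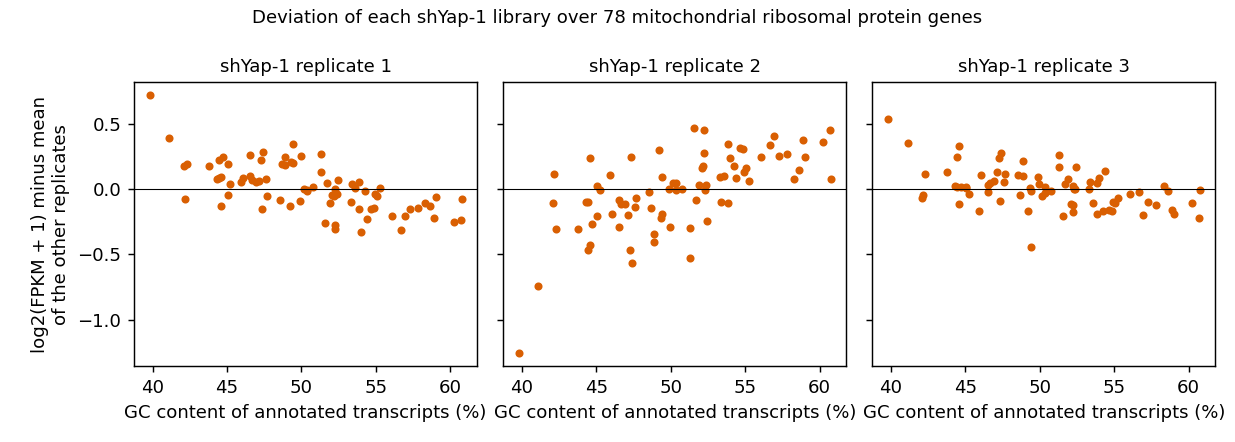
Deviation of each shYap-1 library from the mean of the other 2 shYap-1 libraries, log2(FPKM + 1), against GC content of annotated transcripts in percent. Each of the 78 genes has 1 point. Points run upward with GC content in replicate 2 (rho 0.66) and downward in replicates 1 and 3 (-0.66 and -0.46).

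Genes of the family lie on 17 chromosomes, but 4 of the largest risers are neighbours. Mrpl14, Mrps18a, Mrpl2 and Mrps10 lie between 45686322 and 47381417 on chromosome 17, a grouping seen after their values were known. Of 26 other tested genes in that stretch, there were 13 rises and 10 falls under shYap-1 and 13 rises and 9 falls under shYap-2. Over the whole of chromosome 17, 39.8% of tested genes rose and 25.8% fell under shYap-1, 44.3% and 29.4% under shYap-2. The other 4 members on that chromosome were Mrpl18, which rose by 0.23 (SE 0.06, adjusted p = 0.0087) and 0.30 (SE 0.04, adjusted p = 6.47e-05), and Mrpl28, Mrps18b and Mrps34, which were not called with either hairpin. The shYap-1 call of Mrpl18 was lost under both scalings and with the GC trend removed. With that trend removed the other 3 were called as falls with both hairpins, Mrps34 at -0.33 (adjusted p = 0.00057) and -0.27 (adjusted p = 0.000627) and Mrpl28 at -0.30 (adjusted p = 0.000168) and -0.26 (adjusted p = 0.000138).

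Many of these genes start head to head with another gene, and called partners moved in the same or in opposite directions. Of 24 such pairs with a gene outside the family within 1000 bases, both were called in 8 with shYap-1, 4 in the same direction and 4 in opposite ones. With shYap-2 both were called in 12, of which 6 moved in the same direction and 6 in opposite ones. For comparison, 65.2% and 73.7% of all tested genes were called with shYap-1 and shYap-2. Pairs of unrelated genes were not counted, so these counts are a description only. Mrpl2 and Klc4, a kinesin light chain gene 207 bases away, both rose, Klc4 by 1.88 and 1.52 (adjusted p = 1.6e-05 and 2.65e-07). Mrps12 rose, while Sars2, the mitochondrial seryl-tRNA synthetase gene 172 bases away, fell by 0.56 and 0.46 (adjusted p = 0.000899 and 0.000181). Mrpl49 rose by 0.35 (SE 0.05, adjusted p = 0.00076) and 0.32 (SE 0.03, adjusted p = 2.61e-05) beside Fau, the gene of a cytosolic ribosomal protein, which fell by 0.66 and 0.53 (adjusted p = 0.000577 and 4.93e-07). Mrps27 and Ptcd2, a mitochondrial RNA-processing gene, fell together, Ptcd2 by 0.43 and 0.23 (adjusted p = 0.0165 and 0.00845). The 1 pair inside the family, Mrpl46 and Mrps11, rose together: Mrpl46 by 0.34 and 0.31 (adjusted p = 0.0106 and 0.000532) and Mrps11 by 0.39 and 0.31 (adjusted p = 0.0078 and 0.00427). Removing the GC trend ended the shYap-1 call of Mrpl46 (adjusted p = 0.11) and the shYap-2 call of Mrps11 (adjusted p = 0.108). Their starts overlap by 412 bases and they share 173 exonic bases on opposite strands. Of the 78 genes, 12 share over 10% of their exonic bases with another gene that has values, most of all Mrpl53 (88.0% with Gm42688), Mrps25 (69.8% with Nr2c2) and Mrps34 (63.4% with Mapk8ip3), so their counts are less certain.

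The remaining proteins of the particle carry other names. Chchd1, a small-subunit protein, had 60.42, 56.25 and 57.27 in shCTRL, 44.07, 47.2 and 46.95 under shYap-1 and 51.16, 45.75 and 48.2 under shYap-2, and fell by 0.33 (SE 0.06, adjusted p = 0.00198) and 0.26 (SE 0.05, adjusted p = 0.00105). Ptcd3, also of the small subunit, was at 0.08 with shYap-1 (adjusted p = 0.659) and rose by 0.17 (SE 0.04, adjusted p = 0.00657) with shYap-2. Dap3, Aurkaip1 and Gadd45gip1 were not called in the deposited values, at -0.05, 0.008 and -0.13 under shYap-1 and 0.005, 0.04 and 0.003 under shYap-2. Without shYap-1 replicate 2, 1 of these 5 genes rose and 2 fell with shYap-1, against 41.3% and 31.3% of tested genes. With the GC trend removed 1 rose and 4 fell with each hairpin, at medians of -0.26 and -0.19. All tested genes then gave 36.7% and 35.7% under shYap-1, 37.6% and 36.7% under shYap-2. The list is short and was not tested against these shares.

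Genes that build the mitochondrial ribosome also moved in both directions. Over all tested genes, the shares that rose and fell were 37.6% and 27.6% under shYap-1, 43.2% and 30.5% under shYap-2. Of 26 assembly factors tested, 6 rose and 6 fell under shYap-1, 7 and 9 under shYap-2, at medians of -0.05 and 0.01, both below 0 after either scaling. With the GC trend removed 2 rose and 10 fell under shYap-1, 4 and 10 under shYap-2, at medians of -0.15 and -0.13, and median-of-ratios scaling gave 3 and 10, and 5 and 10. Mpv17l2, an inner-membrane protein needed for assembly, had a mean FPKM of 19.8, 52.4 and 46.5 in shCTRL, shYap-1 and shYap-2, and rose by 1.35 (SE 0.12, adjusted p = 6.11e-05) and 1.20 (SE 0.05, adjusted p = 6.6e-08). Rpusd4, which modifies the large ribosomal RNA, was at 37.4, 20.8 and 21.6, and fell by 0.81 (SE 0.06, adjusted p = 1.66e-05) and 0.76 (SE 0.04, adjusted p = 2.95e-07). Noa1, a GTPase of small-subunit assembly, fell by 0.79 (SE 0.08, adjusted p = 0.000126) and 0.60 (SE 0.05, adjusted p = 9.2e-06).

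Among factors that work with the finished ribosome, called falls outnumbered called rises. Of 15 mitochondrial translation factors, 1 rose and 6 fell under shYap-1, 2 and 6 under shYap-2, at medians of -0.19 and -0.09. The shares of all tested genes that rose and fell were 37.6% and 27.6% under shYap-1, 43.2% and 30.5% under shYap-2. This list is short, and its difference from all genes was not tested. The shYap-1 median was -0.09 without replicate 2, with 2 rises and 6 falls, and under both scalings the shYap-2 median went to -0.18 and -0.19. Gfm1, the elongation factor that moves the ribosome along the message, had 28.26, 27.63 and 27.96 in shCTRL, 15.86, 14.59 and 14.53 under shYap-1 and 18.04, 17.1 and 17.41 under shYap-2. It fell by 0.86 (SE 0.06, adjusted p = 2.37e-05) and 0.65 (SE 0.04, adjusted p = 9.81e-07), with the groups apart. Guf1, another elongation-type GTPase, fell by 1.26 (SE 0.20, adjusted p = 0.00112) and 1.00 (SE 0.08, adjusted p = 2.86e-06), and Lrpprc, which stabilises mitochondrial messages, by 0.51 (SE 0.08, adjusted p = 0.00118) and 0.49 (SE 0.04, adjusted p = 3.85e-06). Gfm2, which splits the ribosome after termination, rose by 0.56 (SE 0.09, adjusted p = 0.000853) and 0.42 (SE 0.07, adjusted p = 0.000655).

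Known regulators of mitochondrial biogenesis, the making of mitochondria, mostly fell. The list mixes regulators of nuclear genes with Tfam, Tfb2m and Polrmt, which act on mitochondrial DNA. Falls made up 27.6% and 30.5% of all tested genes with shYap-1 and shYap-2, and rises 37.6% and 43.2%. Of 12 regulators tested, 1 rose and 8 fell under shYap-1, 1 and 9 under shYap-2. Myc had a mean FPKM of 199 in shCTRL, 77.96 with shYap-1 and 86.1 with shYap-2, and fell by 1.34 (SE 0.08, adjusted p = 8.65e-06) and 1.20 (SE 0.04, adjusted p = 2.35e-08). Gabpa, the ETS-family subunit of the GABP (NRF2) factor, was at 22.9, 12.8 and 13.9967, a fall of 0.80 (SE 0.07, adjusted p = 6.6e-05) and 0.67 (SE 0.06, adjusted p = 7.03e-06). Its partner subunit Gabpb2 fell by 1.24 (SE 0.09, adjusted p = 2.05e-05) and 1.06 (SE 0.06, adjusted p = 2.81e-07), and Yy1 by 0.51 (SE 0.06, adjusted p = 0.00018) and 0.39 (SE 0.04, adjusted p = 2.47e-05). The riser was Esrra, at 0.41 (SE 0.14, adjusted p = 0.0291) and 0.35. Under trimmed-mean and median-of-ratios scaling, 0 rose with shYap-1 and 1 with shYap-2, and with the GC trend removed 0 rose with either.

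Counts for the cytosolic ribosome were one-sided. Of 76 cytosolic ribosomal protein genes, there were 0 rises and 71 falls under shYap-1 and 0 rises and 76 falls under shYap-2 (0 rises at an unadjusted p under 0.05 with either), at medians of -0.51 and -0.44. Rpl12 was at -1.17 (SE 0.06, adjusted p = 5.8e-06) and -0.95 (SE 0.03, adjusted p = 6.22e-09), Rpl3 at -0.86 and -0.71, Rps6 at -0.82 and -0.70 and Rpl7 at -0.73 and -0.57. Under both scalings 75 or 76 of them fell and 0 rose. Over all tested genes, 37.6% rose and 27.6% fell under shYap-1, 43.2% and 30.5% under shYap-2. Nuclear genes of the respiratory chain and ATP synthase had few falls beside these shares. Of 78 tested, 36 rose and 7 fell under shYap-1, 45 and 9 under shYap-2, at medians of 0.23 and 0.20. Among them Ndufa8 rose by 0.73 (SE 0.06, adjusted p = 4.2e-05) and 0.66 (SE 0.03, adjusted p = 1.48e-07), and Atp5l fell by 0.78 (SE 0.07, adjusted p = 4.8e-05) and 0.73 (SE 0.04, adjusted p = 1.54e-07). With median-of-ratios scaling the shYap-1 counts were 23 and 12 (29.5% and 15.4%, against 31.6% and 33.6% of all tested genes). Those for shYap-2 were 34 and 17 (43.6% and 21.8%, against 35.7% and 37.9%). With the GC trend removed the counts were 30 and 15 for shYap-1 and 30 and 17 for shYap-2, at medians of 0.10 and 0.05. Leaving out replicate 2 of shYap-1 gave 41 and 12.

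The 13 proteins encoded in mitochondria, which this ribosome makes, gave 0 rises and 0 falls with shYap-1 (also 0 and 0 at an unadjusted p under 0.05 in limma), and 1 rise (mt-Cytb) and 3 falls with shYap-2. Of these mt-Nd5 fell by 0.37 (SE 0.06, adjusted p = 0.000682) and mt-Nd6 by 0.50 (SE 0.12, adjusted p = 0.00521). Without shYap-1 replicate 2, 9 of the 13 rose with shYap-1 and the median went from -0.03 to 0.33. With the GC trend removed 4 rose and 0 fell under shYap-1, and 7 rose and 2 fell under shYap-2, at medians of 0.14 and 0.18, so more rose than fell there. Oligo(dT) selection was used, per the labels, and most of these messages, though not mt-Nd6, carry short tails. Whether selection touched them differently between libraries was not tested.

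**Figure D5:**
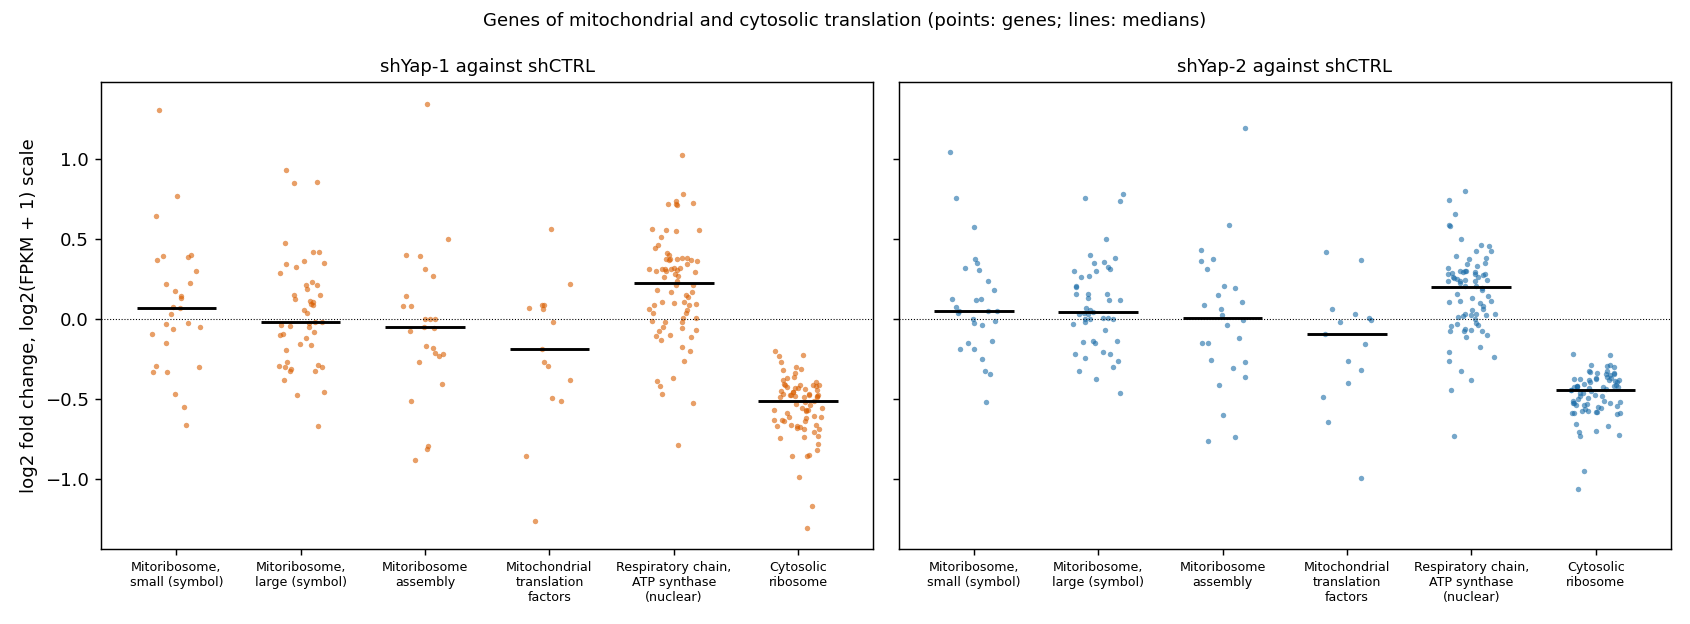
Log2 fold change against shCTRL, log2(FPKM + 1) scale, of each tested gene in 6 groups of translation and respiration genes, with horizontal lines for medians. Medians of the mitochondrial ribosomal genes lie close to 0, those of cytosolic ribosomal genes at -0.51 and -0.44 and those of nuclear respiratory chain genes at 0.23 and 0.20.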

How the data were processed

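Gene values are FPKM, deposited by the authors in 1 table per hairpin, rounded to 2 decimals, and both tables carry the same shCTRL values. The submitters' processing notes name RSEM, StringTie 1.3.4, HISAT2 2.1.0, fastp 0.18.0 and the build mm10, with no order. Which tool made the values, the annotation and the use of strand are not given in the sources used here. RNA was selected with oligo(dT), per the labels. FPKM are not counts, so no count test was used.

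Groups came from the sample labels. Each hairpin was tested against shCTRL in its own table with limma 3.58.1 (R 4.3.3, abundance trend) on log2(FPKM + 1), without further scaling, where 3 or more libraries reached an FPKM of 1. P-values were adjusted by Benjamini-Hochberg over all tested genes, with a threshold of 0.05. The fits were tested on simulated data with independent noise for each gene and library. That noise lacks the GC-linked deviation of shYap-1 replicate 2, so the check gives no error rate for these libraries. The pseudocount understates changes of low genes. The hairpins were compared in 1 model of 9 libraries. With 3 libraries against 3, the smallest exact permutation p is 0.1, so lower p-values rest on the model. Subunit medians and sums got no test.

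The members and gene lists were chosen with earlier results of these data known. The genes named are the 6 largest rises and falls called with both hairpins, the 3 highest and lowest levels per subunit, called differences between hairpins, and members with a special place, plus up to 4 genes per other list. Structural places, roles and list membership come from general knowledge of the mammalian ribosome, and the role of Mrps28 was entered after the data were seen. Other genes were named after their values were seen, as examples of a place, a partner or a setting: Mrpl1, Mrpl4, Mrpl11, Mrpl17, Mrpl18, Mrpl28, Mrpl32, Mrpl34, Mrpl38, Mrpl46, Mrpl49, Mrpl53, Mrps11, Mrps15, Mrps25, Mrps26, Mrps33, Malsu1 and Esrra, and the head-to-head partners.

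Depth was estimated as the number of fragments at which low values become whole counts within 0.25. Between 85.98% and 94.2% of those values did, and this covers counting error only. Alternatives were a pseudocount of 0.1, no filter, a filter at 5, scaling by median of ratios or trimmed mean, GC trend removal, a replicate block, limma without trend, all 9 libraries in 1 fit, the subunit by structure, and each library left out. Tables were made with Python 3.11.15, pandas 2.3.3 and numpy 2.4.6, figures with matplotlib 3.10.9.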

Additional observations from a re-analysis of the deposited data

Results flagged for a closer look

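The effect of the hairpins differed for 1 gene. Mrps18a stood lower with shYap-2 than with shYap-1 by a log2 difference of -0.26 (SE 0.06, limma adjusted p = 0.0497), although it rose with both, and the 3 shYap-2 libraries all lay below the 3 shYap-1 libraries. The call is at the edge of the threshold. It was kept with a filter at an FPKM of 5 (adjusted p = 0.0436), with the GC trend removed (0.0109) and without shYap-1 replicate 2 (0.0222), and was lost under the other settings listed in the next part.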

How the results depend on the processing

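Counts of calls that changed by over 1.5 times were these. With shYap-1, 15 members rose under trimmed-mean and 15 under median-of-ratios scaling (23 in the reported fit), and 28 fell after removal of the GC trend (17). With shYap-2, 11 fell with all 9 libraries in 1 fit (19). Between hairpins, 2 members were higher with shYap-2 after removal of the GC trend (0), and 0 were lower (1) with a pseudocount of 0.1, no filter, either scaling or limma without trend. With 1 library left out, members higher with shYap-2 ranged from 0 to 5 and members lower from 0 to 2. The small minus large difference with shYap-2, 0.005 as reported, was -0.016 by structure and -0.011 after removal of the GC trend, and ranged from -0.013 to 0.011 with 1 library left out. With shYap-1 it was 0.09 as reported, and ranged from -0.009 to 0.092. The cause was not tested.

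Some directions of members that had not been called turned. Values of Mrpl33 with shYap-2 were -0.10 under each scaling. Those of Mrpl12 with shYap-2 were -0.093 by trimmed mean, -0.10 by median of ratios and -0.20 after removal of the GC trend (adjusted p = 0.00287). Mrpl45 with shYap-2 was at -0.022 and -0.025 under these scalings, and Mrpl58 with shYap-2 at -0.038 and -0.041, and at -0.073 without the GC trend. With 1 library left out, Mrpl58 with shYap-2 ranged from -0.031 (without shCTRL replicate 3) to 0.15, and Mrps5 with shYap-2 from -0.030 (without shCTRL replicate 3) to 0.24. Without shYap-1 replicate 2, Mrpl45 with shYap-1 was at 0.10. The filter at an FPKM of 5 tested 77 members. Of the calls in the reported fits, 13 of 23 rises and 12 of 17 falls with shYap-1, and 17 of 31 rises and 10 of 19 falls with shYap-2, stayed called under each of the 15 alternatives. Of the members not called, 22 with shYap-1 and 13 with shYap-2 gained a call under at least 1 of them, 16 and 10 after removal of the GC trend.

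The labels do not say whether replicate numbers pair the samples. Correlations of deviations from the group mean ran from -0.24 to 0.34 between same-numbered libraries and from -0.39 to 0.32 between the others. Deviations sum to 0 within each group, and shYap-1 replicate 2 stood apart, so these values cannot settle the pairing. With a replicate block, 22 members rose and 17 fell with shYap-1, 31 and 19 with shYap-2, 28 and 18 for the mean of both, and between hairpins 0 were higher and 0 lower.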
